A study of Homo sapiens with 4 samples.

Results

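Transcripts of 10 genes of the nuclear lamina and of senescence-associated chromatin were read in SUM159 cells treated with palbociclib, indisulam or both drugs. The genes were taken by name: the lamin genes LMNA, LMNB1 and LMNB2, the lamin B receptor gene LBR, the HMG box genes HMGB1 and HMGB2, the AT-hook HMG genes HMGA1 and HMGA2, CBX5 and EZH2. They are 10 of 60279 genes in the deposited count tables, and 10 of 10 were among the 14269 genes that passed the filter (an average of 1 CPM or more in the 4 libraries), where CPM is the read count scaled to the total of the library. SUM159 is an established line of triple-negative breast cancer, grown with serum, insulin and hydrocortisone. There were 4 groups with 1 library each: untreated cells, palbociclib, indisulam, and the combination. Palbociclib inhibits CDK4 and CDK6, and indisulam directs the splicing factor RBM39 to degradation. The labels gave 0.5 µM palbociclib and 2 µM indisulam for 10 days, the text on the series gave 2 µM and 3 µM for 16 h in technical duplicates, and which of these applies to the libraries was not settled.

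The nuclear lamina is a meshwork of A-type and B-type lamins under the inner nuclear membrane, to which LBR and other membrane proteins tether heterochromatin. In senescent cells, loss of lamin B1, release or loss of the nuclear HMGB proteins, gain of HMGA proteins in heterochromatin foci and lower EZH2 are widely used marks. HMGA proteins bend AT-rich DNA, HMGB proteins bind and bend DNA through HMG boxes, CBX5 encodes the HP1α reader of methylated H3K9, and EZH2 is the methyltransferase of Polycomb repressive complex 2 (PRC2) that acts on H3K27. Several of these genes are also expressed mainly in cycling cells, where E2F and, later in the cycle, B-MYB and FOXM1 with the MuvB core drive their transcription, whereas the DREAM complex represses such genes in arrested cells.

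The libraries held 12555908 reads in genes without treatment, 12691481 with palbociclib, 16712174 with indisulam and 14359529 with the combination. Mitochondrially encoded genes took between 4.90% (indisulam) and 7.33% (palbociclib) of them. Of 12 genes used to check the cell type, 8 passed the filter. The mesenchymal genes VIM, FN1 and CD44 had between 9628 and 253480 reads in every library. The keratin genes KRT8 and KRT18 had 5283 to 9602 and 2038 to 3573 reads, and ERBB2 had 1628 to 1831. KRT5, KRT14 and CDH1 had 58 reads or fewer, and EPCAM, ESR1 and PGR had 16 or fewer. Of 10 markers of blood, endothelial, fat and liver cells, 5 were at or under a floor of 3 reads throughout, among them CD3E with no read in any library. PTPRC had 153 to 292 reads and CD14 66 to 116. The summed level of these 10 markers was 37.8 CPM without treatment, 61.0 CPM with palbociclib, 40.0 CPM with indisulam and 37.6 CPM with the combination. PECAM1 had 191 reads without treatment, 519 with palbociclib and 293 in each library with indisulam, and the part of these markers in the results was not tested. All cells of a culture were sequenced together, so that fewer cells with a transcript and less transcript per cell cannot be told apart.

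The stretches before the transcription start of these genes were read from RefSeq promoter windows on GRCh38.p14, and their part in the ratios was not tested. A window whose start lay within 50 bases of the main annotated start was found for 6 members (LMNB1, LMNB2, HMGB1, HMGA1, CBX5 and EZH2), and none was used for LMNA, LBR, HMGB2 and HMGA2. Shown are the parts without any annotated exon for the members with the longest such parts, 5′ to 3′ on the strand of the gene, and the capitals mark the core CCAAT of the NF-Y box on either strand and 2 forms of the cell cycle genes homology region (CHR). These forms are TTTGAA in LMNB2 and, in HMGA1, its variant TTTAAA. The LMNB2 stretch lies at chr19:2456960-2457209 (minus strand), that of HMGB1 at chr13:30465939-30466116 (minus strand), that of HMGA1 at chr6:34236749-34236872 (plus strand) and that of EZH2 at chr7:148884322-148884541 (minus strand).
LMNB2: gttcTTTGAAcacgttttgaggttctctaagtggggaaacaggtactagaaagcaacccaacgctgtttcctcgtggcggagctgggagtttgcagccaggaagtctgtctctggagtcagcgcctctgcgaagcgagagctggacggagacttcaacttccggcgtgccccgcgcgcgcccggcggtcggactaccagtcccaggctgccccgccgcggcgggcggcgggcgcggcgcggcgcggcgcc
HMGB1: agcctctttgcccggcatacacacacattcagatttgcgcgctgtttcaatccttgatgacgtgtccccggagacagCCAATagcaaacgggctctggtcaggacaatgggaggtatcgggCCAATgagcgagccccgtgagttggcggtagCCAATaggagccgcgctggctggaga
HMGA1: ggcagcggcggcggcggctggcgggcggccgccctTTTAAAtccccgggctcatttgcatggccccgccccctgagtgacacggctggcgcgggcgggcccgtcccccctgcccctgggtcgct
EZH2: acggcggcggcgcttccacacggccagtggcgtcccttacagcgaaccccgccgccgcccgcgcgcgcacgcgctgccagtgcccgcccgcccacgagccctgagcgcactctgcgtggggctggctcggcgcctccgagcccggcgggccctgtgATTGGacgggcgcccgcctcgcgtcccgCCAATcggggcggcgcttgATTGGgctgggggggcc

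HMGB1 carried CCAAT 3 times in its 250 bases and EZH2 4 times, of which 3 are in the printed stretch. LMNB1 and CBX5 carried it 1 time each. CCAAT on either strand was present in 32.0% of 35116 promoter windows of the same length. TTTAAA was found in LMNB1 and HMGA1 (11.3% of windows), at -191 and -89 from the transcription start. TTTGAA was found in LMNB2 (13.3%), at -246. The whole LMNB1 window, with its CCAAT and TTTAAA, lay in annotated exons. The E2F letters TTTCCCGC, TTTCGCGC, TTTGCCGC and TTTGGCGC were not found on either strand of the 6 windows, against 2.79% of all windows, which says only that these letters are not in them.

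Levels were compared between genes as CPM per kilobase of annotated exons. Without treatment the order was HMGA1 (164 CPM per kb), LMNA (63.7), HMGB2 (45.4), HMGB1 (22.3), LMNB2 (16.8), CBX5 (13.4), LMNB1 (11.3), LBR (8.79), EZH2 (1.82) and HMGA2 (0.883), all as CPM per kb. The same order was obtained with the length of the main transcript of each gene in place of all exons, although LMNB1 and LBR were then close, at 14.2 and 13.4 CPM per kb. The exon length of LMNA, HMGA2 and EZH2 was more than 2 times that of the main transcript, so the level of these genes depends on the length chosen. In the combination HMGA2 was above EZH2, at 2.20 against 1.57 CPM per kb. The position of LMNB2 against HMGB2 in that library depended on the length, with 26.5 against 22.6 CPM per kb over all exons and 30.9 against 37.7 over the main transcripts.

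**Figure D1:**
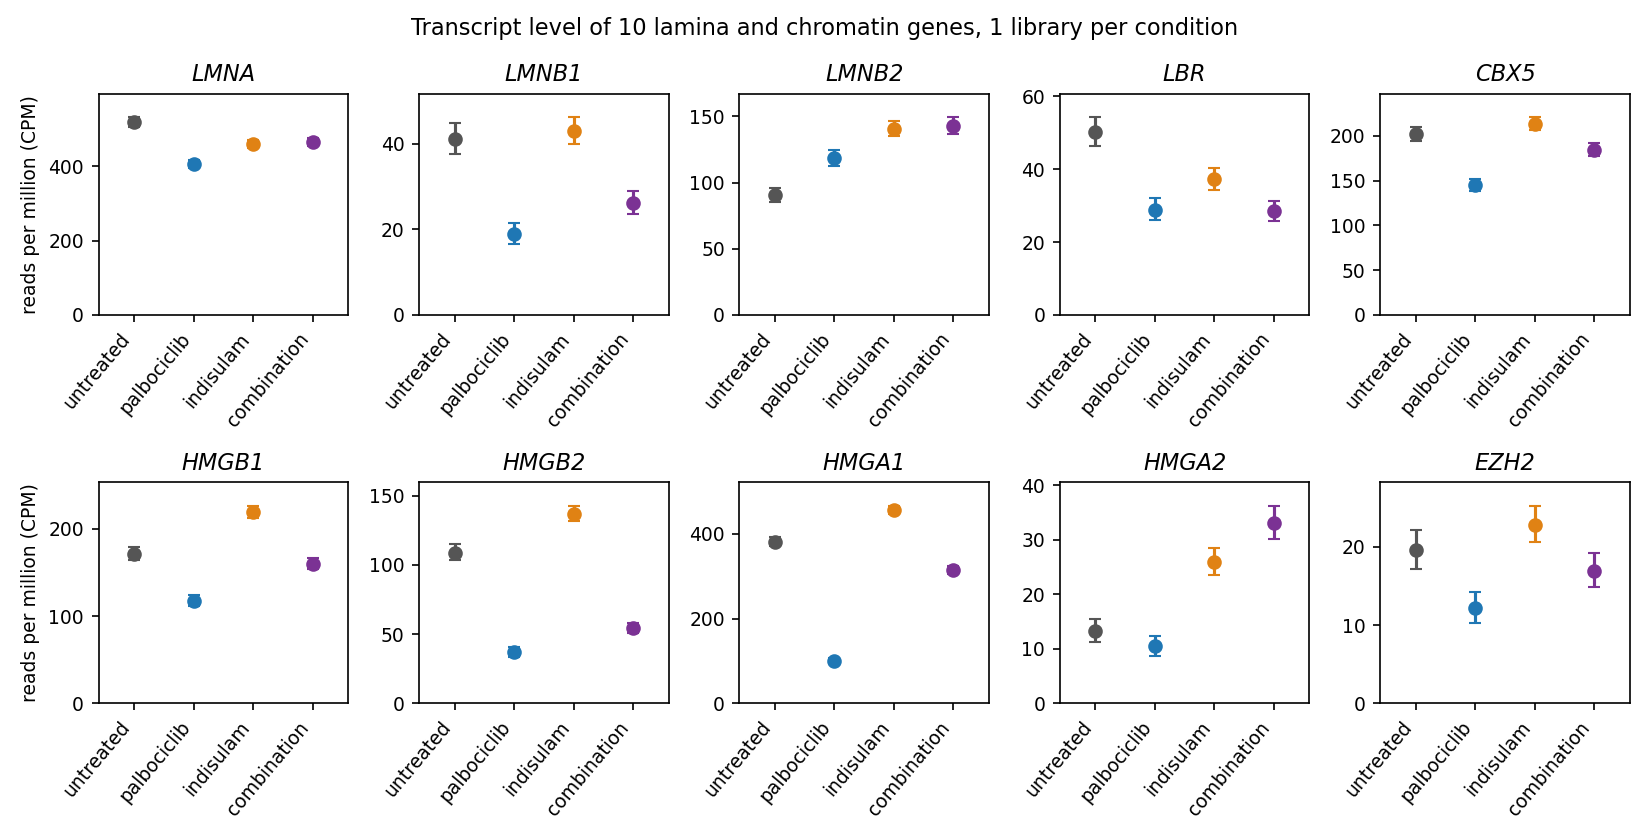
Level of each gene in the 4 libraries in CPM (vertical axis, starting at 0, scaled for each gene), with 1 point per library and bars for the 95% Poisson interval of the read count. HMGA1 fell to 100.5 CPM with palbociclib against 313.8 CPM or more in the other libraries, HMGA2 was highest in the combination at 33.1 CPM, and LMNB2 was lowest without treatment at 90.6 CPM.

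The first question was how the members differed from untreated cells with palbociclib, the inhibitor of CDK4 and CDK6. The counts were scaled to equal library totals, and a gene was called when the ratio of scaled counts was at least 2-fold and its 95% counting interval excluded a ratio of 1. With palbociclib 3 of 10 members were called lower (HMGA1, HMGB2 and LMNB1) and 0 higher, beside 10.7% of all tested genes called and 4.89% called lower. The log2 ratio was below 0 for 9 members and above 0 for LMNB2 alone. The median log2 ratio of the members was -0.62, beside -0.02 over all tested genes. With indisulam against untreated 0 of 10 members were called, beside 15.1% of tested genes, and the median was 0.24 beside 0.06. HMGA2 came closest to the threshold there, with a ratio of 1.95-fold. In the combination against untreated HMGA2 was called higher and HMGB2 lower, beside 12.9% of tested genes called higher, 10.5% called lower and 23.5% in all, and the median was -0.18 beside 0.05. The share of members called was near that of all genes in this comparison. The comparisons with untreated cells share the untreated library, and no p-value was given since each group was a single library without a replicate check.

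**Figure D2:**
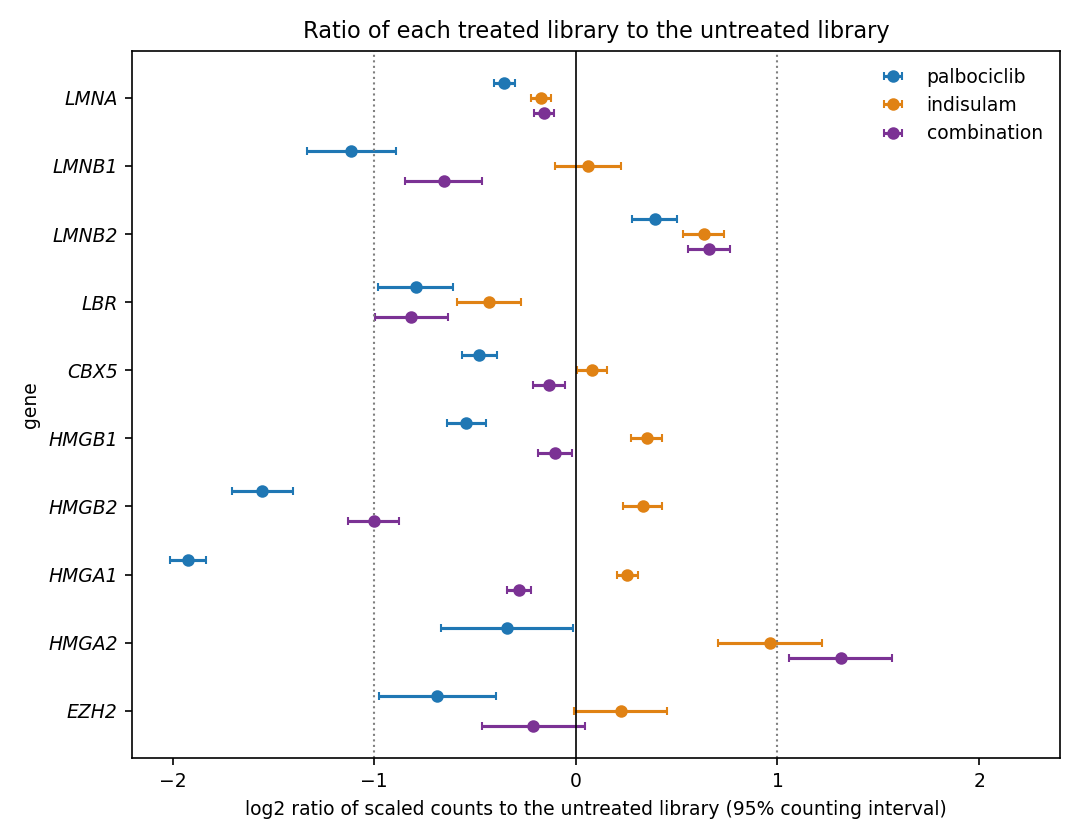
Log2 ratio of scaled counts of each treated library to the untreated library (horizontal axis) for the 10 genes, with 95% counting intervals as bars and the 2-fold limits as dotted lines. HMGA1, HMGB2 and LMNB1 lay beyond the lower limit with palbociclib, and HMGA2 lay beyond the upper limit in the combination.

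Noise between libraries was bounded from the layout of the study. The departure from additivity is the difference between the log2 ratio seen in the combination and the value expected by adding those of the single drugs. It contains the noise of all 4 libraries together with any true interaction. From its robust spread over genes, the SD of the log2 ratio between a pair of libraries was at most 0.28 for genes at 100 CPM or more, 0.26 from 20 to 100 CPM and 0.37 from 5 to 20 CPM, if the spread was all noise. In the combination against untreated, LMNA, HMGB1, CBX5 and EZH2 had ratios of smaller size than these values.

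The lamin genes did not move together. LMNB1 (chromosome 5, 126776623 to 126837020), the gene of lamin B1, had 41.2 CPM (517 reads) without treatment, 19.0 CPM (241 reads) with palbociclib, 43.0 CPM (718 reads) with indisulam and 26.1 CPM (375 reads) with the combination. Its level was low in both libraries with palbociclib and like the untreated level with indisulam alone. LMNB1 was 2.16-fold lower with palbociclib, and the combination was not 2-fold below indisulam (log2 ratio -0.72, -0.90 to -0.54) or untreated (-0.66, -0.85 to -0.46). Against palbociclib the combination was higher by a log2 ratio of 0.46 (0.23 to 0.69).

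LMNB2 (chromosome 19, 2427638 to 2456959), which encodes lamin B2, had 90.6 CPM (1138 reads) without treatment, 118.8 CPM (1508 reads) with palbociclib, 140.8 CPM (2353 reads) with indisulam and 143.1 CPM (2055 reads) with the combination. Every treated library was above the untreated one, and no ratio reached 2-fold. As log2 ratios to untreated cells, LMNB2 had 0.39 for palbociclib (0.28 to 0.50), 0.64 for indisulam (0.53 to 0.74) and 0.66 for the combination (0.55 to 0.76). Between combination and indisulam the log2 ratio was 0.02 (-0.06 to 0.11). LMNA (chromosome 1, 156082573 to 156140081), which gives lamin A and lamin C by alternative splicing, had 518.7 CPM (6513 reads) without treatment, 405.7 CPM (5149 reads) with palbociclib, 460.1 CPM (7689 reads) with indisulam and 465.0 CPM (6677 reads) with the combination. LMNA was highest in the untreated library, and its ratio to untreated of largest size was 1.28-fold, with palbociclib. Gene counts do not separate the transcripts of lamin A and lamin C.

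**Figure D3:**
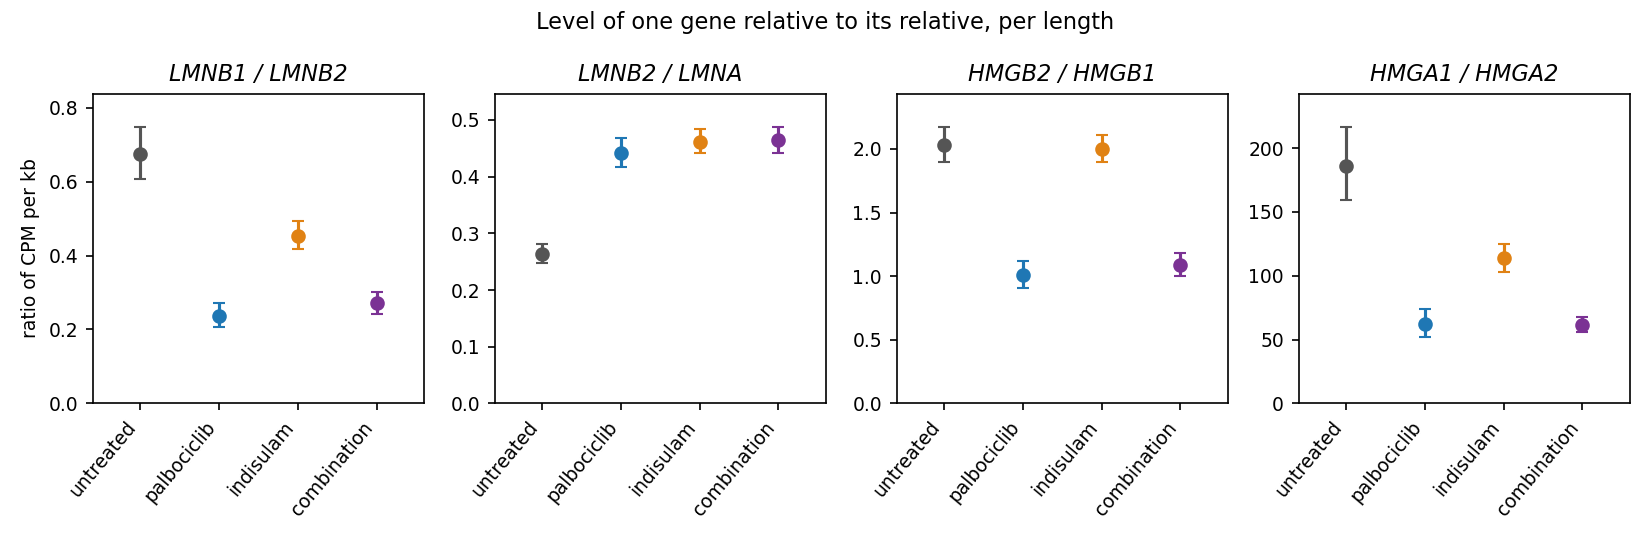
Ratio of the per-length levels (CPM per kb of exons) of 4 pairs of related genes in each library, with bars for the 95% counting interval and axes that start at 0. The LMNB1 to LMNB2 ratio was 0.67 without treatment and 0.24 to 0.45 in the treated libraries, and the HMGB2 to HMGB1 ratio was about 2 in both libraries without palbociclib and about 1 in both with it.

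Within a library, the ratio of 2 genes does not depend on the scaling between libraries. For each LMNB2 transcript, per length, there were 0.67 LMNB1 transcripts without treatment (0.61 to 0.75), 0.24 with palbociclib (0.21 to 0.27), 0.45 with indisulam (0.42 to 0.49) and 0.27 with the combination (0.24 to 0.30). The ratio was below the untreated ratio in 3 of 3 treated libraries, with counting intervals that did not overlap it. All 3 comparisons share the untreated library, and the intervals hold no noise between libraries. With indisulam alone the lower ratio came with a higher LMNB2 level rather than a lower LMNB1 level. The LMNB2 to LMNA ratio was 0.26 without treatment and 0.44, 0.46 and 0.46 with palbociclib, indisulam and the combination. The LMNB1 to LMNA ratio was 0.18 without treatment, 0.10 with palbociclib, 0.21 with indisulam and 0.13 with the combination. Both of these ratios depend on the length taken for LMNA. With main transcript lengths, LMNB2 to LMNA was 0.12, 0.20, 0.21 and 0.21 without treatment and with palbociclib, indisulam and the combination. In the same order LMNB1 to LMNA was 0.087, 0.051, 0.10 and 0.062, and LMNB1 to LMNB2 was 0.73, 0.26, 0.49 and 0.29.

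LBR (chromosome 1, 225401502 to 225428925) encodes the inner membrane receptor that binds B-type lamins and HP1. It had 50.2 CPM (630 reads) without treatment, 28.9 CPM (367 reads) with palbociclib, 37.2 CPM (622 reads) with indisulam and 28.5 CPM (409 reads) with the combination. LBR was below the untreated level in 3 of 3 treated libraries, and the log2 ratio was -0.79 for palbociclib (-0.98 to -0.61), -0.43 for indisulam (-0.59 to -0.27) and -0.82 for the combination (-0.99 to -0.64). None of these reached 2-fold. Combination and palbociclib differed by a log2 ratio of -0.02 (-0.22 to 0.18).

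CBX5 (chromosome 12, 54230942 to 54280133) had 202.1 CPM (2538 reads) without treatment, 145.0 CPM (1840 reads) with palbociclib, 213.5 CPM (3568 reads) with indisulam and 184.3 CPM (2647 reads) with the combination. EZH2 (chromosome 7, 148807257 to 148884321) had 19.6 CPM (246 reads) without treatment, 12.1 CPM (154 reads) with palbociclib, 22.9 CPM (382 reads) with indisulam and 16.9 CPM (243 reads) with the combination. Both genes were lowest with palbociclib alone and highest with indisulam alone. The log2 ratio of palbociclib to untreated was -0.48 (-0.57 to -0.39) for CBX5 and -0.69 (-0.98 to -0.40) for EZH2. For EZH2 the combination could not be told from untreated at this depth, with a log2 ratio of -0.21 (-0.47 to 0.04).

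HMGB2 (chromosome 4, 173331376 to 173334432) had 109.0 CPM (1368 reads) without treatment, 37.0 CPM (470 reads) with palbociclib, 137.1 CPM (2291 reads) with indisulam and 54.3 CPM (780 reads) with the combination. Both libraries with palbociclib were below both libraries without it. HMGB2 was 2.94-fold lower with palbociclib than without treatment and 2.52-fold lower in the combination than with indisulam, comparisons that share no library. It was the 1 member called in the combination against indisulam, where 8.19% of tested genes were called and 3.15% called lower. Its ratio of combination to untreated was 2.00-fold lower (log2 ratio -1.003, -1.13 to -0.88), so that the call at 2-fold was lost when mitochondrial genes were left out of the library totals and when the pseudocount was 5.

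HMGB1 (chromosome 13, 30456704 to 30617597) had 171.9 CPM (2158 reads) without treatment, 118.0 CPM (1497 reads) with palbociclib, 219.4 CPM (3667 reads) with indisulam and 160.1 CPM (2299 reads) with the combination. Its order over the libraries was that of HMGB2, except that the untreated and combination levels were close, with a log2 ratio of -0.10 (-0.19 to -0.02). The log2 ratio of HMGB1 was -0.54 (-0.64 to -0.45) for palbociclib against untreated and -0.45 (-0.53 to -0.38) for combination against indisulam. Per length, the HMGB2 to HMGB1 ratio was 2.03 without treatment and 2.00 with indisulam, and 1.01 with palbociclib and 1.09 with the combination. HMGB1 has 48 named pseudogene copies in the files, and between 35 and 40 reads per library were assigned to them. A read that aligned equally well to a copy was not counted, so that HMGB1 is undercounted by an amount that was not measured.

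HMGA1 (chromosome 6, 34236873 to 34246231) had 381.6 CPM (4791 reads) without treatment, 100.5 CPM (1276 reads) with palbociclib, 455.7 CPM (7616 reads) with indisulam and 313.8 CPM (4506 reads) with the combination. The palbociclib library stood apart from the other 3, which lay within a 1.45-fold range. HMGA1 was 3.79-fold lower with palbociclib than without treatment, and 0.883% of tested genes had a lower ratio. The combination was 1.45-fold below indisulam. The combination was 3.12-fold above palbociclib and departed from the sum of the single drugs by a log2 value of 1.39 (1.28 to 1.49). This was the 1 member past 2-fold in the departure, beside 7.77% of tested genes past it and 3.93% above the sum. Of 12 proliferation genes, read further below, 3 (TOP2A, CCNA2 and FOXM1) were past 2-fold above the sum and 0 below it. Their departures ranged from -0.94 to 1.25, with a median of 0.57. The 3.79-fold and 3.12-fold ratios of HMGA1 and its departure all use the same palbociclib library.

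HMGA2 (chromosome 12, 65824460 to 65966291) had 13.3 CPM (167 reads) without treatment, 10.5 CPM (133 reads) with palbociclib, 26.0 CPM (434 reads) with indisulam and 33.1 CPM (476 reads) with the combination. Both libraries with indisulam were above both without it. HMGA2 was 2.48-fold higher in the combination than without treatment and 3.15-fold higher than with palbociclib. HMGA1 and HMGA2 were the 2 members called in the combination against palbociclib, both higher, beside 16.9% of tested genes called and 9.56% called higher. The antisense transcript HMGA2-AS1, which shares 2.55% of the HMGA2 exon bases on the opposite strand, had 3 reads without treatment, 12 with palbociclib, 84 with indisulam and 53 with the combination. The libraries were strand-specific, but whether strand was used in counting was not given in the sources used here.

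The proportion of the AT-hook transcripts differed between the libraries. Per length of all exons, the HMGA1 to HMGA2 ratio was 185.8 without treatment (159.2 to 216.8), 62.1 with palbociclib (52.0 to 74.3), 113.6 with indisulam (103.2 to 125.2) and 61.3 with the combination (55.8 to 67.4). With the main transcript lengths the ratios were 61.5, 20.6, 37.6 and 20.3 in the same order of libraries. The ratio was like that of palbociclib in the combination, although HMGA1 was then 3.12-fold and HMGA2 3.15-fold above the palbociclib library.

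Each drug was present in 2 libraries, so that its ratio could be read against a background with and without the partner drug. The estimates for palbociclib (to untreated, and combination to indisulam) share no library. LMNB1, HMGB1, HMGB2, HMGA1, LBR, CBX5 and EZH2 had intervals below 0 in both. The share of all tested genes with intervals below 0 in both was not counted. CBX5 was at -0.21 in the combination against indisulam, smaller in size than the noise bound of 0.28 at 100 CPM or more. LMNB2 was above untreated with palbociclib (0.39) and not separated in the presence of indisulam (0.02), and LMNA had log2 ratios of -0.35 and 0.02. HMGA2 was at -0.34 (-0.67 to -0.01) without indisulam and 0.35 (0.16 to 0.54) with it. The members had a median log2 ratio of -0.41 for combination against indisulam, beside -0.01 over all tested genes. For indisulam against untreated, the median was 0.24, beside 0.06 over all tested genes. There 6 members had an interval above 0, and 2, LMNA (-0.17) and LBR (-0.43), had one below 0. Of these, HMGA1 (0.26), CBX5 (0.08) and LMNA were smaller in size than the noise bound of 0.28. The median was 0.45 for combination against palbociclib, beside 0.07 over all tested genes. In that comparison 9 of 10 members had an interval above 0, with LBR as the exception. LMNA (0.20) and LMNB2 (0.27) were there also below the noise bound of 0.28. The comparison uses the palbociclib library, in which 9 members had log2 ratios to untreated below 0. The share of all tested genes with such intervals was not counted.

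**Figure D4:**
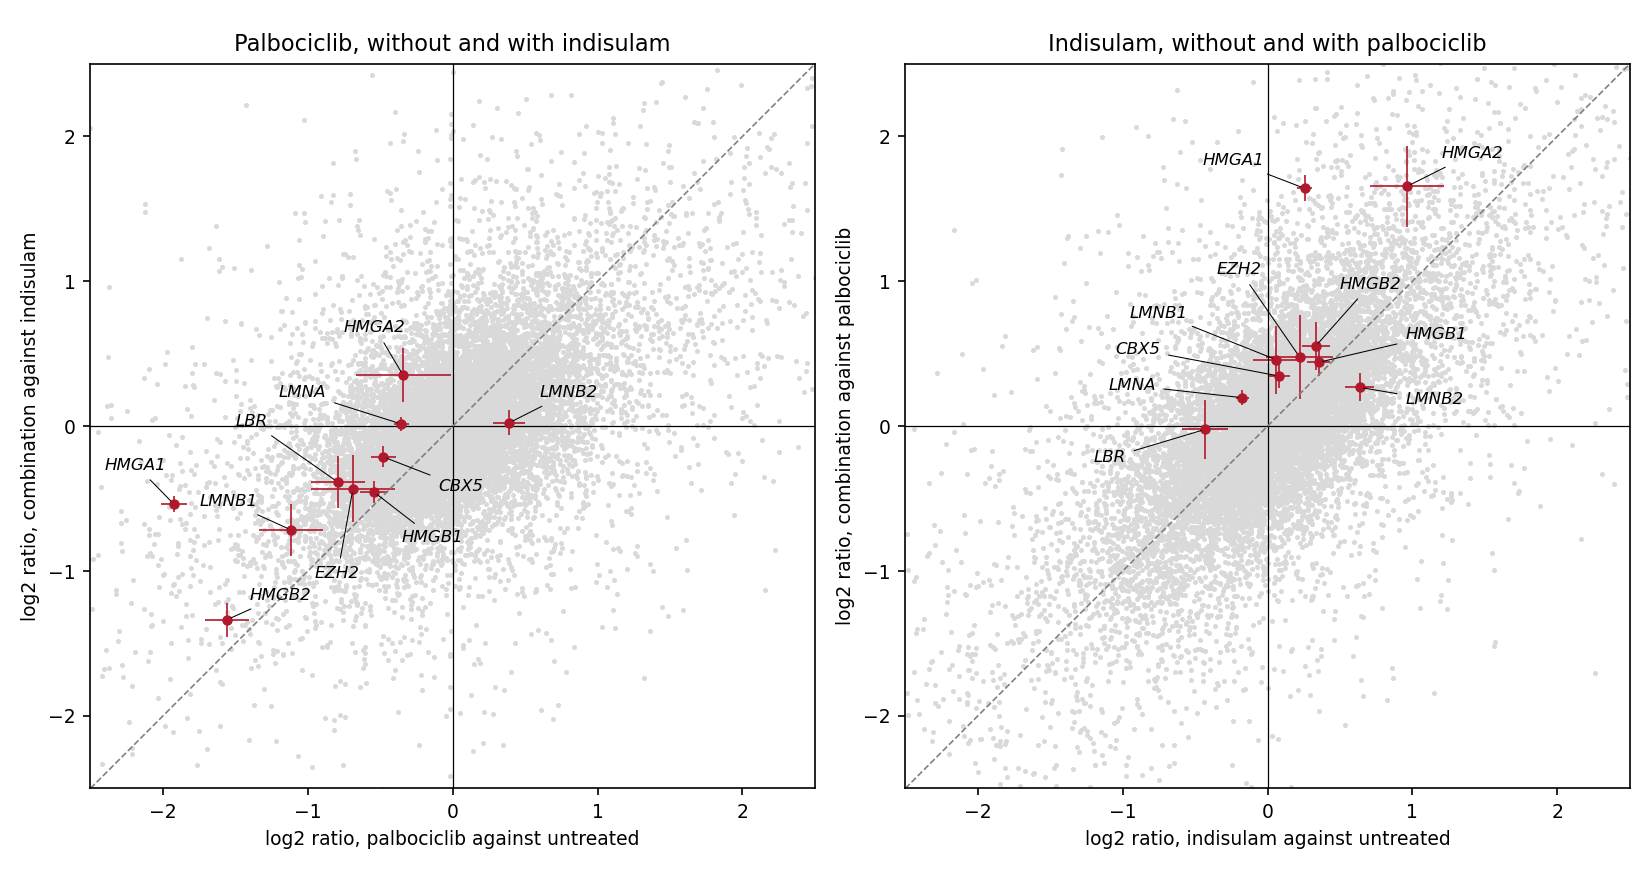
Log2 ratio of each drug without the other drug (horizontal axis) and with it (vertical axis), for the 10 genes in red with 95% counting intervals and the other tested genes in grey, and a dashed line where both ratios are equal. The height of a gene above the line is its departure from additivity, the same value in both panels. HMGA1 lay far above the line and HMGB2 near it, and 181 (left) and 505 (right) grey genes fell outside the axes.

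Other genes of the lamina were read from a list of 21 membrane partners and processing enzymes, 21 of which were tested. In the combination against untreated 2 were called higher and 3 lower, a share near the 23.5% of all tested genes called, and the median log2 ratio was -0.19 beside 0.05 over all tested genes. ZMPSTE24, the protease that matures prelamin A, was higher by a log2 ratio of 1.53 (1.37 to 1.69), with 406 reads without treatment, 914 with palbociclib, 990 with indisulam and 1344 with the combination. SYNE2 (nesprin-2) was lower by -1.82 (-1.94 to -1.70), PRR14, which tethers HP1-bound heterochromatin to the lamina, by -1.31 (-1.52 to -1.09), and SUN2, a partner of nesprins in the inner membrane, by -1.14 (-1.24 to -1.04). The fifth was TOR1A, the gene of torsin A, higher by 1.06 (0.88 to 1.23) and named after its value was seen. With palbociclib against untreated 1 partner was called higher (ZMPSTE24, at 1.15) and 2 lower (SYNE2, at -2.10, and SUN2, at -1.12), beside 10.7% of tested genes called. With indisulam 0 of 21 were called, beside 15.1%. SYNE2 had 2360 reads without treatment, 554 with palbociclib, 2735 with indisulam and 763 with the combination, so that it was low in both libraries with palbociclib, as were SUN2, LMNB1 and HMGB2.

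Among 14 other genes with HMG domains or HMGN names and the FACT subunits, 0 were called in the combination against untreated, beside 23.5% of tested genes. HMGB3, another HMG box gene of the HMGB type, had the highest log2 ratio at 0.84 (0.74 to 0.93), and HMGN5, which encodes a nucleosome-binding protein, the lowest at -0.54 (-0.85 to -0.24). HMGB3 was the 1 gene of the list called with indisulam against untreated, at 1.38 (1.29 to 1.47), where 15.1% of tested genes were called. In that comparison HMGB1 was at 0.35 (0.28 to 0.43) and HMGB2 at 0.33 (0.23 to 0.43). The median of the list was -0.26 with palbociclib, 0.16 with indisulam and -0.10 with the combination.

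A list of 17 heterochromatin genes held enzymes and readers of H3K9 methylation. It also held genes of DNA methylation or histone deposition, such as DNMT1, ATRX, DAXX, CHAF1A and CHAF1B. Of these 17 genes 0 were called in any of the 5 comparisons between libraries. The shares of all tested genes called were 10.7% for palbociclib, 15.1% for indisulam and 23.5% for the combination, each set against untreated cells. They were 16.9% between combination and palbociclib and 8.19% between combination and indisulam. In the combination against untreated their median log2 ratio was 0.19, the highest was SUV39H2, an H3K9 methyltransferase, at 0.98 (0.64 to 1.31), and the lowest was MPHOSPH8, a subunit of the HUSH silencing complex, at -0.68 (-0.83 to -0.53). CBX1 and CBX3, the other HP1 genes, had log2 ratios of 0.53 and 0.19, beside -0.13 for CBX5. They were named after their values were seen. Of 8 genes for histone chaperones and macroH2A that build heterochromatin foci, 0 were called in the combination against untreated, beside the same 23.5%. MACROH2A1 was highest at 0.73 (0.64 to 0.82) and CABIN1, of the HIRA complex, lowest at -0.46 (-0.60 to -0.32).

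Partners of EZH2 in PRC2, its paralog EZH1 and the H3K27 demethylases formed a list of 13 genes, with 0 called in the combination against untreated, beside 23.5% of tested genes. MTF2, an accessory subunit, was highest at 0.72 (0.49 to 0.95) and EZH1 lowest at -0.85 (-0.98 to -0.73). The core subunits SUZ12 and EED, named after their values were seen, had log2 ratios of 0.63 (0.49 to 0.77) and 0.33 (0.09 to 0.57). The accessory subunit JARID2, also named after its values were seen, was the 1 gene of the list called with indisulam against untreated, at 1.505 (1.35 to 1.66). It had 446 reads without treatment, 277 with palbociclib, 1687 with indisulam and 829 with the combination. Of all tested genes 15.1% were called with indisulam against untreated. EPOP, another accessory factor, was also named after its values were seen. It was the 1 gene of the list called with palbociclib against untreated, higher at 1.60 (1.29 to 1.91), beside 10.7% of tested genes. Of 16 genes of Polycomb repressive complex 1, PHC1 was called lower in the combination against untreated at -1.09 (-1.35 to -0.84), and 0 were called higher, beside 10.5% of tested genes called lower and 12.9% called higher. CBX2, named after its values were seen, was the 1 gene of that list called with indisulam against untreated, higher at 1.19 (0.95 to 1.44). Beside it 15.1% of tested genes were called, and with palbociclib 0 genes of that list were called, beside 10.7%. In the combination the medians of both Polycomb lists, 0.05 and 0.02, were near the 0.05 of all tested genes.

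**Figure D5:**
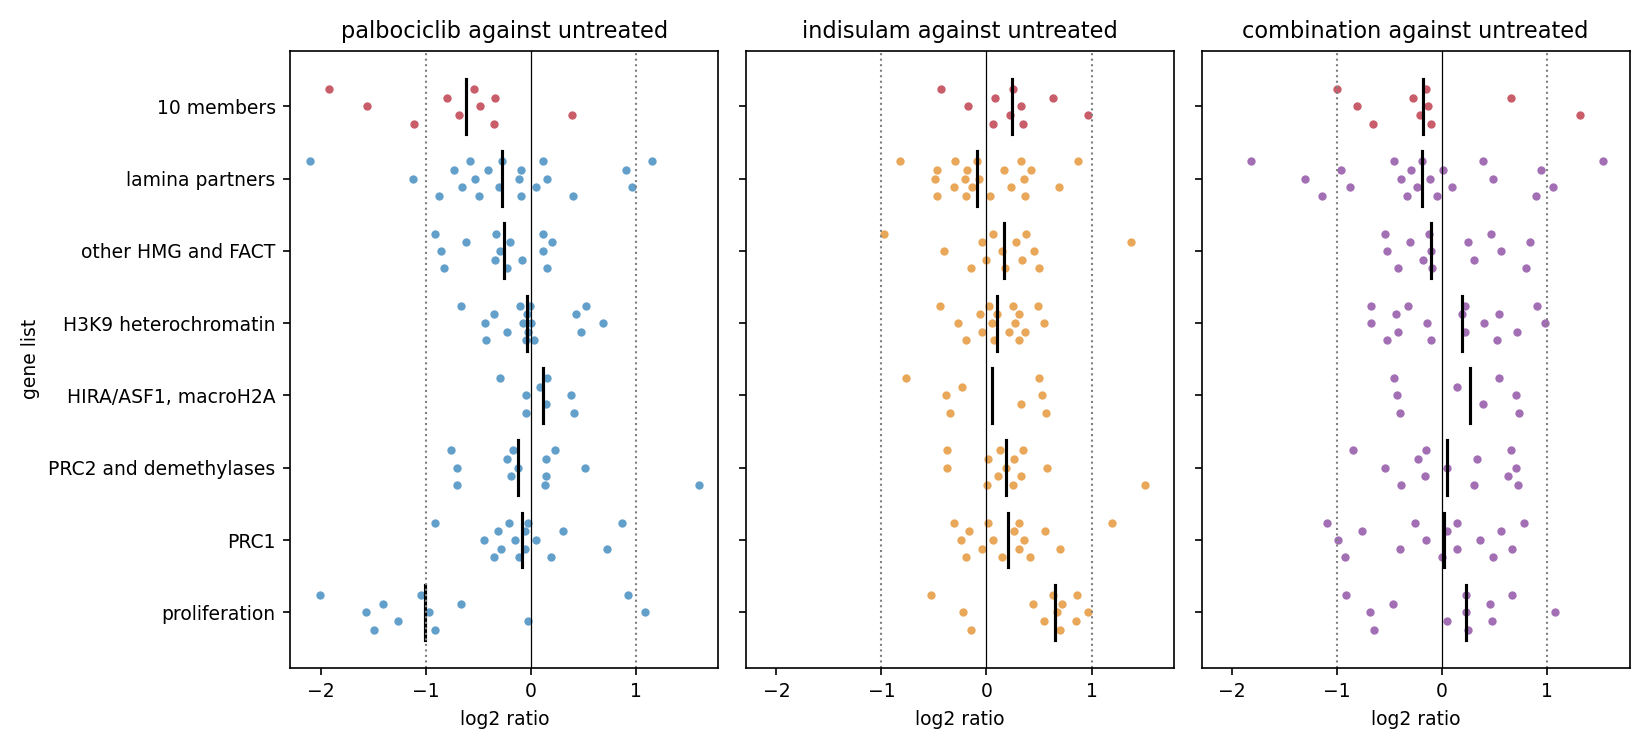
Log2 ratio to untreated (horizontal axis, 1 panel per treated library) of the 10 genes and of 7 gene lists, with 1 point per gene, a black bar at the median and the 2-fold limits as dotted lines. The medians of the 10 genes were -0.62, 0.24 and -0.18, and those of the proliferation genes -1.01, 0.66 and 0.23.

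Since several members are expressed mainly in cycling cells, 12 genes of proliferation were read beside them. With palbociclib against untreated 6 were called lower and 1 (MCM2, a subunit of the replicative helicase) higher, with log2 ratios from -2.01 to 1.09 and a median of -1.01, beside 10.7% of tested genes called and 4.89% called lower. With indisulam 0 were called, beside 15.1%, with ratios from -0.53 to 0.97 and a median of 0.66. With the combination MCM2 was called higher at 1.07, beside 23.5% of tested genes called, and the range was -0.92 to 1.07 with a median of 0.23. Against untreated cells, the direction of these medians was that of the members with each single drug and not with the combination. For combination against palbociclib 5 were called higher, beside 9.56% of tested genes, and the median was 0.91, beside 0.45 for the members. For combination against indisulam 0 were called, beside 8.19%, and the median was -0.45, beside -0.41 for the members. In both of these comparisons the direction was that of the members. The part of proliferation in the ratios of the members was not tested.

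The genes with the pattern most like that of LMNB1 and of HMGA2 were taken by the distance over the 3 log2 ratios to untreated, among 8037 tested genes at 20 CPM or more. All 3 ratios share the untreated library, and the pattern rests on 4 libraries. For LMNB1 these were IGFBP4, LYST and SLC2A3, at distances of 0.09, 0.10 and 0.14 on the log2 scale. The nearest member to LMNB1 was LBR, at 0.61. For HMGA2, the member with the ratio of combination to untreated of largest size, they were PLAUR, PAQR3 and DUSP5, at distances of 0.06, 0.19 and 0.21. PLAUR, the urokinase receptor gene, had log2 ratios of -0.32 with palbociclib, 0.95 with indisulam and 1.26 with the combination, beside -0.34, 0.96 and 1.31 for HMGA2. The nearest member to HMGA2 was LMNB2, at 1.03.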

How the data were processed

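RNA from SUM159 cells (untreated, palbociclib, indisulam and the combination, 1 library each) was sequenced as stranded poly(A) libraries. The submitters' processing notes name TopHat2 2.1, HTSeq and GRCh38, and the strand setting and annotation release were not given in the sources used here. The deposited values are raw counts of reads per Ensembl gene. For their own analyses the authors scaled libraries by relative total size. Reads in no gene (0.615% to 0.694%), in more than 1 gene (2.41% to 2.63%) or at more than 1 place (6.46% to 6.84%) were listed apart. They were left out here, and the shares are of the reads in genes and the reads listed apart together.

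Each count was scaled by the ratio of the mean library total to its own library total, over reads in genes. Log2 ratios were taken with a pseudocount of 1 scaled count and given 95% Poisson intervals. Genes at a mean of 1 CPM or more were tested. Intervals and the floor of 3 reads (0.180 to 0.239 CPM) describe the error of counting and nothing else, because the reads carried no molecular identifiers and may repeat a molecule. The deposited counts had 1 library per group, and neither p-values nor a replicate check were possible. Ratios were recomputed with TMM and upper-quartile factors (edgeR 4.0.16), size factors of DESeq2 1.42.0, totals without mitochondrial genes, other filters, a pseudocount of 5 and a 1.5-fold threshold. The steps were tested on simulated data. The ratio steps ran in Python 3.11.15.

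The members and the gene lists were chosen with earlier results of these data known. Named from each list were the genes called in the combination against untreated (up to 4 by size) and otherwise the highest and lowest. Named as neighbours were the 3 genes nearest to LMNB1 and to the member with the largest change. Gene positions and exon lengths are from GENCODE release 44 on GRCh38, counted from 1, and overlaps and pseudogenes were looked up by name there. Promoter sequences are from RefSeq (GRCh38.p14).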

Additional observations from a re-analysis of the deposited data

Results flagged for a closer look

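Genes whose ratio for a drug had opposite signs without and with the other drug were listed for a closer look. Each ratio is between single libraries, and the difference between them was not tested. For palbociclib, LMNA had a log2 ratio of -0.35 without indisulam and 0.015 with it, and the interval of the latter (-0.03 to 0.06) included 0. For indisulam, LMNA had -0.17 without palbociclib and 0.20 with it, both smaller in size than the noise bound of 0.28. For palbociclib, HMGA2 had -0.34 without indisulam and 0.35 with it. The departure from additivity, which is the difference between each pair of ratios, was 0.37 for LMNA (0.30 to 0.44) and 0.69 for HMGA2 (0.32 to 1.07). It was higher in LMNA than in 78.0% of tested genes, and in HMGA2 than in 90.2%.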

How the results depend on the processing

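Among the 60 ratios of the 10 genes, recomputed under 8 alternatives, 470 of 480 values stayed within the counting interval of the reported value, 10 moved outside it and 0 called ratios changed sign. The other filters and the 1.5-fold threshold do not enter a ratio, so that values under them equal the reported ones by construction. The 470 therefore include values that could not move. The 1 uncalled ratio that crossed 0 was LMNB1 with indisulam against untreated (0.06, and -0.00040 with DESeq2 size factors). The number of members called in the combination against untreated fell from 2 to 1 with totals that left out mitochondrially encoded genes and with a pseudocount of 5, since HMGB2 lay at the 2-fold limit. A 1.5-fold threshold gave 5 members for palbociclib against untreated, 2 for indisulam against untreated, 5 for the combination against untreated, 2 for the combination against indisulam and 2 for the departure from additivity. At that threshold the shares of all tested genes were 24.8%, 31.4%, 42.5%, 22.2% and 18.8%. TMM factors gave 1705 higher and 1624 lower genes for the combination against untreated, beside 1844 and 1505 as reported. Counts for the lists of other genes moved most with the 1.5-fold threshold, at which the lamina partners called in the combination against untreated were 9 rather than 5. No paired analysis was possible because each group was 1 library, and no library could be left out for the same reason. Depth limits EZH2 and HMGA2 most, with as few as 154 and 133 reads.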
